A study of Mus musculus with 21 samples.

Results

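The expression of 9 genes for fast voltage-gated potassium channels and their calcium-binding partners was measured in the brains of SAMP8 mice given HsTX1[R14A] or phosphate-buffered saline (PBS). These were the Kv3 pore genes Kcnc1, Kcnc2 and Kcnc4, the Kv4 pore genes Kcnd2 and Kcnd3, and the KChIP genes Kcnip1, Kcnip2, Kcnip3 and Kcnip4. They were taken by gene name from the deposited table of 16318 genes, in which each name stood for 1 gene. The rule for choosing them used names and not values, but the set was proposed with earlier results of these data known. All 9 passed the filter on low counts, which left 16303 genes for testing.

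The mice were SAMP8, a senescence-accelerated strain used as a model of sporadic Alzheimer's disease, and no other strain was among the 21 libraries. HsTX1[R14A] is a peptide that blocks Kv1.3, the potassium channel encoded by Kcna3. It was injected under the skin at 1 mg/kg every second day for 8 weeks from an age of 4 months, in 3 females and 6 males, called treated mice here. PBS was given on the same schedule to 6 females and 6 males, and all mice were 6 months old when the perfused brains were taken. Each library came from the brain of 1 mouse, named as whole brain in the study's methods, so a lower level of a transcript can reflect fewer cells of a type or less RNA per cell, and the 2 cannot be told apart.

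Kv3 channels open at strongly depolarised voltages and close fast, which lets fast-spiking neurons repolarise quickly and fire at high rates. Kv4 channels open below the spike threshold and inactivate quickly, and they carry the A-type current of dendrites and cell bodies. KChIPs are cytoplasmic EF-hand proteins that bind the N terminus of Kv4 subunits and change their surface expression and gating, and Kcnip3 is also known as calsenilin, a presenilin-binding protein, and as DREAM, a calcium-regulated repressor of transcription.

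Library totals ran from 14917174 to 36207554 counts in PBS mice and from 17552413 to 47613792 in treated mice. The sex-averaged difference did not pass (exact permutation test within sex, two-sided, p = 0.405). In females the totals ran from 14917174 to 36207554 (PBS) and from 24465565 to 47613792 (treated). In males they ran from 23969258 to 33230076 (PBS) and from 17552413 to 34846637 (treated). Depth was not tested within each sex. The markers of neurons and of glia were present in every library. Of the 7 markers of the cerebellum, 4 were close to 0 in most libraries, although whole brain would hold it. Gabra6, the granule cell receptor subunit, had a median of 0.228 CPM and was at 0 counts in 1 mouse, and Pcp2, a Purkinje cell gene, had a median of 0.159 CPM and was at 0 counts in 4 mice. The medians of Fat2 and Cbln3 were 0.298 and 0.357 CPM. The other 3 were present in every library, Zic1 with a median of 63.2, Car8 with 13.8 and Cbln1 with 12.5 CPM. The treated male 74 stood apart, with the 7 cerebellar markers summing to 683 CPM, against 43.4 to 218 CPM in the other libraries. How much of the cerebellum each sample held is not given in the sources used here, and its part in the results was not tested beyond leaving that mouse out. The treated female 71 had the lowest sum of the 5 striatal markers, 291 CPM, and the next library had 619 CPM. CPM here are counts scaled by TMM to a common library total.

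The promoter sequences of the 3 genes that were called higher in treated mice, and of Kcnip2, which was not called and has the highest level per length, are shown so that the starts of the genes can be compared. They are from RefSeq on GRCm38.p6 and run 5′ to 3′ on the strand of the gene, from 250 bases before the annotated start to 50 bases after it. Capitals mark GC boxes, the letters GGGCGG on either strand.
Kcnc1: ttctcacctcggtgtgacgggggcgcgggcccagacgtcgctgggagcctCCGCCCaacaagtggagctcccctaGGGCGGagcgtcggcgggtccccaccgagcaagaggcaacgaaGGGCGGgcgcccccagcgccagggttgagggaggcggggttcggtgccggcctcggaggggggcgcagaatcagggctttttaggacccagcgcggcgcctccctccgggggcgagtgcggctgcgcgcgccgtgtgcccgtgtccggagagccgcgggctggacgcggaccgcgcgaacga
Kcnc4: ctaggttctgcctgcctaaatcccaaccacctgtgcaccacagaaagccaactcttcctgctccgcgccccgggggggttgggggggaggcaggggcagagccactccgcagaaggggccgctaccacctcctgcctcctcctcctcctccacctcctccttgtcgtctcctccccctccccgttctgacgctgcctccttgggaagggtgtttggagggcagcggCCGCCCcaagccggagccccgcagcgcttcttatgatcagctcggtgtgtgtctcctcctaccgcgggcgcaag
Kcnd3: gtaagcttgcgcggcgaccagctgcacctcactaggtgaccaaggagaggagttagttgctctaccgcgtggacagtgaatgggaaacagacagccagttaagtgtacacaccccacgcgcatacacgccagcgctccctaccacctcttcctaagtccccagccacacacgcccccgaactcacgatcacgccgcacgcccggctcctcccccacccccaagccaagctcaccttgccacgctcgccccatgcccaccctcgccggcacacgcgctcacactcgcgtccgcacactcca
Kcnip2: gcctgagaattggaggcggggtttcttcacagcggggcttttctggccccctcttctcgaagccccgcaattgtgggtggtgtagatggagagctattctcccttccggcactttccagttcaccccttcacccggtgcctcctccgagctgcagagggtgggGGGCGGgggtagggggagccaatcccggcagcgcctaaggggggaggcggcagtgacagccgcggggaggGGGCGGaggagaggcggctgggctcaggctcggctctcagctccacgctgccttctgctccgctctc

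These windows lie at chr7:46396218-46396517 (Kcnc1, plus strand), chr3:107458849-107459148 (Kcnc4, minus strand), chr3:105451640-105451939 (Kcnd3, plus strand) and chr19:45816014-45816313 (Kcnip2, minus strand). All 9 genes had a RefSeq promoter, and 5 had a single start. The RefSeq start was 29 bases from the outermost GENCODE start in Kcnc1 and 2 bases from it in Kcnip2. It was 440 bases upstream of it in Kcnd3 and 654 bases downstream of it in Kcnc4, so the 2 annotations differ there.

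The Kcnc1 window was among the most GC-rich of all promoters, with 74.7% GC, above or equal to 96.1% of 32851 mouse promoter windows of this length, whose median was 52.7%. It held 3 GC boxes, against 1 in Kcnc4, 0 in Kcnd3 and 2 in Kcnip2. Of all windows, 35.7% held at least 1. The GC content was 66.7% in Kcnc4, 64.0% in Kcnd3 and 67.0% in Kcnip2. Neither the cAMP response element TGACGTCA, present in 1.79% of all windows, nor TATAAA, present in 13.6%, was found on either strand in any of the 17 starts of the 9 genes.

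Levels of different genes were compared as CPM per kb, the CPM divided by the length of the joined exons. Kcnip2, the KChIP best known from cardiac and forebrain A-type channels, had the highest level per length, 41.4 ± 6.32 CPM per kb (SD, n = 21), and was above every other gene of the set by its mean. Kcnip3 followed with 24.05 ± 3.01 CPM per kb and Kcnd2, the main dendritic Kv4 pore, with 21.7 ± 2.58 CPM per kb. Kcnip3 was above Kcnd2 in 15 of 21 mice, and their means differed by less than 1 SD.

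Kcnip4 had 16.8 ± 2.08 CPM per kb and was below Kcnd2 in 19 of 21 mice. The 3 Kv3 genes came next with nearly equal means, 10.8 ± 4.53 for Kcnc1, 10.6 ± 2.08 for Kcnc2 and 10.2 ± 3.69 CPM per kb for Kcnc4. Kcnc1 was above Kcnc2 in 10 of 21 mice, so these neighbours had no fixed order. Kcnd3, the second Kv4 pore, had 7.63 ± 2.32 CPM per kb and was below Kcnc4 in 20 of 21 mice, though by less than 1 SD. Kcnip1, a KChIP known from interneurons, was lowest, at 5.10 ± 0.611 CPM per kb, below Kcnd3 in 17 of 21 mice. The ranges of each pair of neighbours overlapped.

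**Figure D1:**
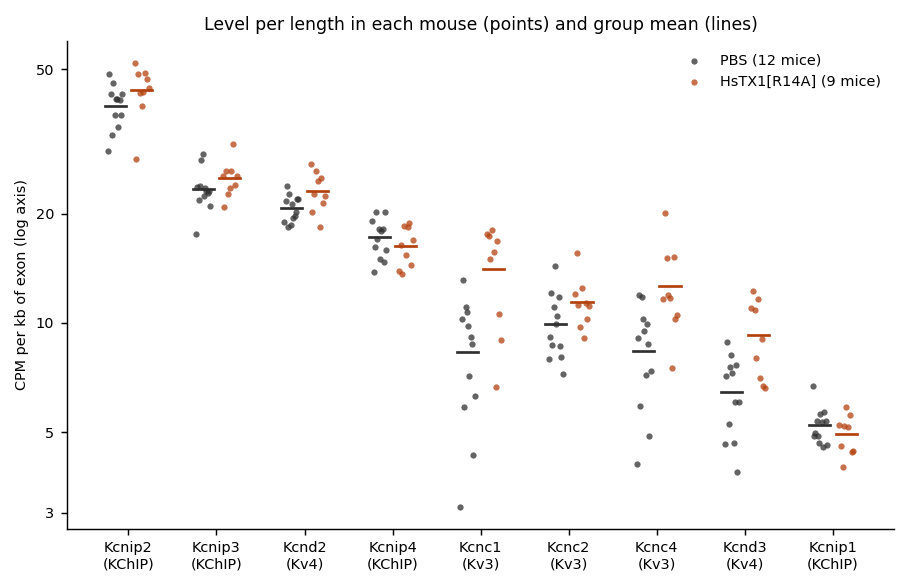
Level per length of the 9 genes in each mouse, as CPM per kb of exon on a log axis, with PBS mice in grey and treated mice in red and lines at the group means. Kcnip2 has the highest mean, 41.4 CPM per kb, Kcnip1 the lowest, 5.10 CPM per kb, and the 3 Kv3 genes overlap near 10 CPM per kb.

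The order depended in part on which length was used. Divided by the longest transcript instead, Kcnip4 had 25.4 CPM per kb and passed Kcnd2 at 21.7. Kcnip2 (46.2) and Kcnip3 (31.2) remained the highest and Kcnip1 (7.72) the lowest on that scale. The Kv3 genes were no longer nearly equal there, with 14.97 for Kcnc2, 13.1 for Kcnc1 and 10.2 CPM per kb for Kcnc4.

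The makeup of each family was described within the set of 9 genes, as shares of the summed level per length of its listed members. Family members outside the set, such as the Kv4 pore gene Kcnd1, were not counted. Kcnd2 made up 76.5% ± 4.19 (SD, n = 12) of the Kv4 level in PBS mice and 71.7% ± 4.97 (SD, n = 9 treated mice), and Kcnd3 the rest. Within the Kv3 genes of the set, Kcnc2 made up 38.5% ± 6.55 in PBS mice and 30.7% ± 4.81 in treated mice. The share of Kcnc1 was 30.4% ± 4.399 and 36.3% ± 5.73, and that of Kcnc4 31.2% ± 2.69 and 33.0% ± 3.32. These shares of the 2 groups overlapped, and they were not tested.

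Among the KChIPs, Kcnip2 made up 46.3% ± 4.34 in PBS mice and 48.5% ± 4.11 in treated mice, and Kcnip1 6.17% ± 1.11 and 5.53% ± 0.816. The summed KChIP level was 3.16 ± 0.268 times the summed Kv4 level in PBS mice and 2.82 ± 0.475 times in treated mice, with ranges of 2.62 to 3.65 in PBS mice and 2.16 to 3.65 in treated mice. KChIP transcripts thus exceeded those of Kcnd2 and Kcnd3 together, per length, in each of the 21 libraries.

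The first comparison asked whether the genes differed between brains of treated and of PBS mice when the sexes were combined. Kcnc1, Kcnc4 and Kcnd3 rose, by 1.75-, 1.54- and 1.48-fold, and none of the 9 genes fell. These 3 calls were lost when a measure of how each library's counts depended on transcript length, described further on, was added to the model (log2 fold changes of 0.10, 0.11 and 0.18). Thus 2 of 3 Kv3 pores, 1 of 2 Kv4 pores and 0 of 4 KChIPs in the set were called. Called means an adjusted p of at most 0.05 in edgeR's quasi-likelihood test with sex in the model. Kcnd1, a Kv4 pore outside the set, was also called and is described further on. Of all genes tested, 31.6% were called, 15.5% higher and 16.1% lower in treated mice. The count of 3 of 9 was thus near the share called in either direction and above the share called higher, and whether 9 genes stand apart from that share was not tested. In the alternative settings in which 3 or 4 of the 9 genes were called, the share of all genes called higher ran from 5.98% to 20.1%. At an unadjusted p under 0.05 there were 5 of the 9 genes and 7562 of all genes, and the median log2 fold change of all genes was -0.01.

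**Figure D2:**
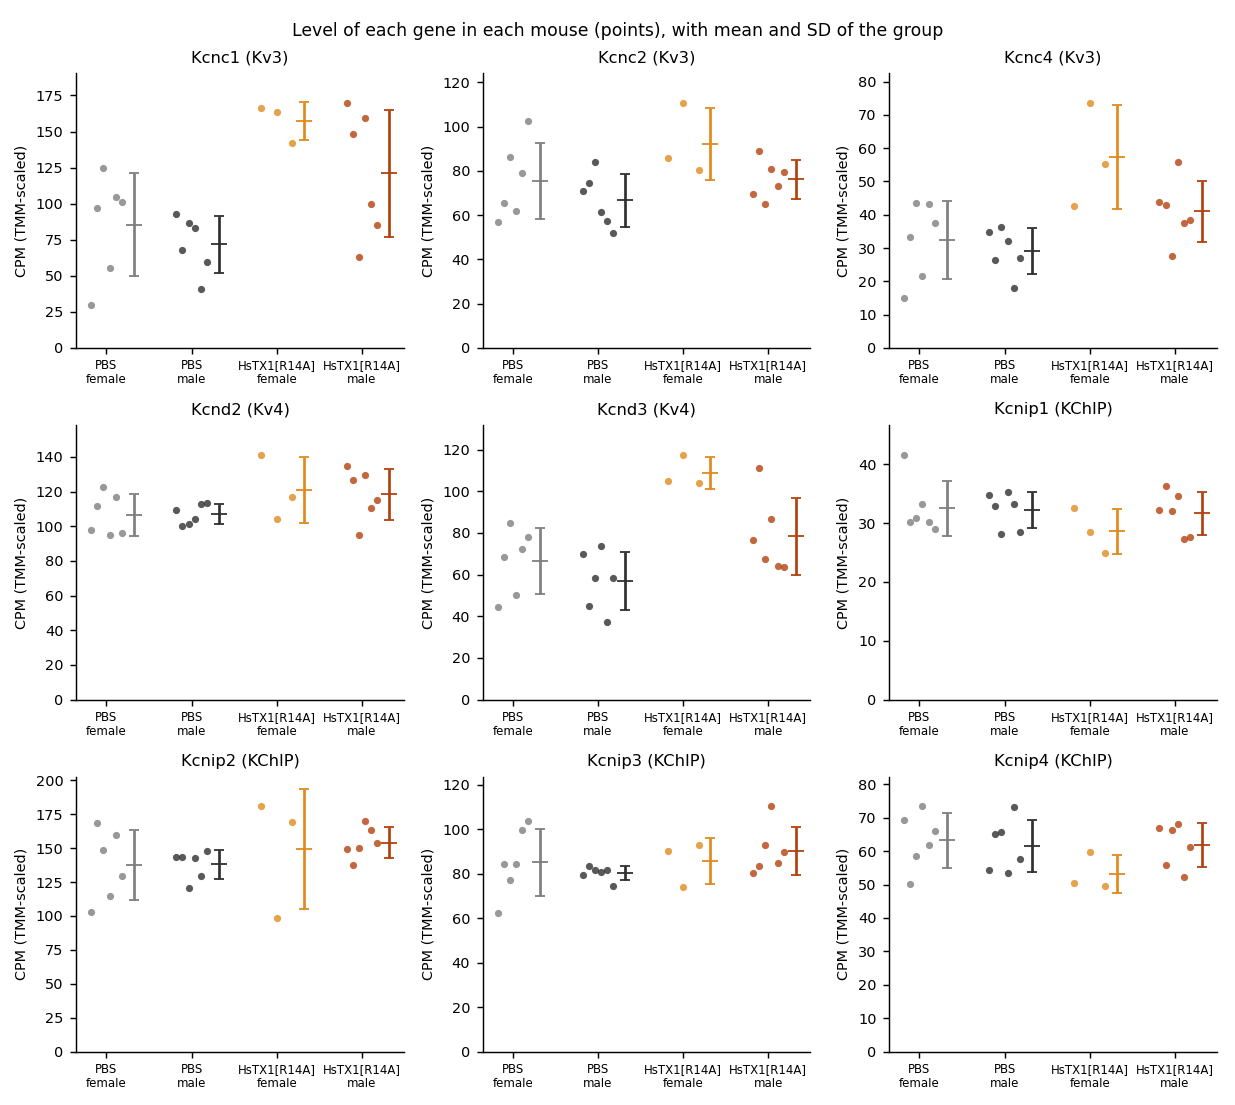
CPM of each of the 9 genes in each mouse, by treatment and sex (points), with the mean and SD of each group beside the points. Kcnc1, Kcnc4 and Kcnd3 sit higher in treated mice, with 6, 4 and 5 of 9 above the highest PBS mouse, and the KChIP genes overlap between the groups.

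Kcnc1 encodes Kv3.1, a pore of fast-spiking interneurons and of auditory and cerebellar neurons. Its level in PBS mice ran from 29.5 CPM (female 103) over a median of 84.6 to 124 CPM (female 84). In treated mice it ran from 63.1 CPM (male 93) over a median of 149 to 170 CPM (male 74). The groups overlapped, but 6 of 9 treated mice were above the highest PBS mouse and 8 of 9 were above the PBS median. The means were 78.6 ± 28.3 CPM (SD, n = 12) and 133 ± 39.8 CPM (SD, n = 9), which gave a log2 fold change of 0.80 (standard error, SE, 0.22, adjusted p = 0.0186, edgeR).

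The highest Kcnc1 value belonged to the library with the high cerebellar markers, and without that mouse the log2 fold change of Kcnc1 was 0.74 (adjusted p = 0.0326, edgeR). The gene lies on chromosome 7 of GRCm38 from 46396497 to 46438704 on the plus strand, and its longest transcript has 7760 bases, against a median of 3283.5 bases over the tested genes. Of the other called genes, Kcnd3 has 7169 bases and Kcnc4, with 3667, is near that median. The uncalled Kcnd2 (5152) and Kcnc2 (5046) are longer than Kcnc4, and the KChIP genes have 2394 to 4095 bases.

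Kcnc4 encodes Kv3.4, a Kv3 pore that inactivates quickly. It ran from 14.97 CPM (female 103) over a median of 32.7 to 43.7 CPM in PBS mice, and from 27.5 CPM (male 93) over 43.0 to 73.7 CPM (female 71) in treated mice. Here 4 of 9 treated mice were above every PBS mouse, and 5 of 12 PBS mice were below every treated mouse. The mean was 30.7 ± 9.30 CPM (SD, n = 12 PBS mice) and 46.4 ± 13.4 CPM (SD, n = 9 treated mice), a log2 fold change of 0.63 (SE 0.18, adjusted p = 0.0198, edgeR). With 1 surrogate variable in the model, a term for unlabelled structure estimated from the data, the log2 fold change of Kcnc4 was 0.31 and its call was lost (adjusted p = 0.0677, edgeR). The same setting took Kcnc1 to 0.33 (adjusted p = 0.0189) and Kcnd3 to 0.32 (adjusted p = 0.0305, edgeR), both still called. Kcnc4 lies on chromosome 3 from 107438303 to 107459552 on the minus strand.

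Kcnc2 encodes Kv3.2, a pore of cortical fast-spiking and somatostatin interneurons and of thalamocortical cells. It was 71.0 ± 14.9 CPM (SD, n = 12 PBS mice) and 81.5 ± 13.4 CPM (SD, n = 9 treated mice), with ranges of 51.7 to 102 and 65.0 to 111 CPM. Although 8 of 9 treated mice were above the PBS median, only 1 was above the highest PBS mouse. The log2 fold change was 0.23 (95% confidence interval 0.01 to 0.46), and its adjusted p of 0.0970 (edgeR) missed the threshold. Without the PBS female 85 it was 0.27 (adjusted p = 0.0459, edgeR) and without the PBS male 82 it was 0.28 (adjusted p = 0.0461), both past the threshold.

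Of the Kv4 pores, Kcnd3, which encodes Kv4.3, was the one called, and its adjusted p was the lowest of the 9 genes. It ran from 37.3 CPM (male 90) over a median of 63.3 to 84.7 CPM (female 84) in PBS mice, and from 63.5 CPM (male 92) over 86.8 to 118 CPM (female 71) in treated mice. All 9 treated mice were above the PBS median, 5 of them were above the highest PBS mouse, and 6 of 12 PBS mice were below the lowest treated mouse. The means of 61.7 ± 15.1 and 88.5 ± 21.5 CPM differed by a log2 fold change of 0.56 (SE 0.14, adjusted p = 0.0163, edgeR). Kcnd3 lies on chromosome 3 from 105452330 to 105674002 on the plus strand and shares 165 exonic bases with the antisense gene Kcnd3os. Whether the counting used strand is not given in the sources used here, so reads in those bases could come from either gene.

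Kcnd2, which encodes Kv4.2, had the narrowest spread of the 9 genes in PBS mice, a coefficient of variation of 8.43%. Its level was 107 ± 8.99 CPM (SD, n = 12 PBS mice), from 94.7 to 123 CPM, and 119 ± 15.1 CPM (SD, n = 9 treated mice), from 94.8 to 141 CPM. Above the highest PBS mouse were 4 of 9 treated mice, and below the PBS median 2 of 9. The log2 fold change of 0.16 (95% confidence interval 0.01 to 0.31) was not called (adjusted p = 0.0854, edgeR). It was called only without the treated male 93 among the mice left out in turn (log2 fold change 0.20, adjusted p = 0.0288, edgeR). Kcnd2 lies on chromosome 6 from 21215503 to 21729805.

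The 4 KChIP genes gave no call, and the differences were small and of both signs. Kcnip2 ran from 103 over a median of 143 to 168 CPM in PBS mice and from 98.5 over 154 to 181 CPM in treated mice. The lowest of the 21 mice, at 98.5 CPM, was the treated female 71, the library with the lowest striatal markers. The log2 fold change of Kcnip2 was 0.14 (95% confidence interval -0.06 to 0.35, adjusted p = 0.258, edgeR) in all mice and 0.21 (adjusted p = 0.0645) without that female. Its relation to the striatal content was not tested.

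Kcnip3 ran from 62.2 over a median of 81.7 to 104 CPM in PBS mice and from 73.8 over 89.8 to 110 CPM in treated mice. Its PBS males were close together, at 80.2 ± 3.04 CPM (SD, n = 6), and its PBS females spread more, at 85.1 ± 15.1 CPM (SD, n = 6). The log2 fold change was 0.10 (95% confidence interval -0.07 to 0.28, adjusted p = 0.318, edgeR).

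Kcnip1 and Kcnip4 were the 2 genes with a negative log2 fold change, which in neither case passed the test. Kcnip1 was 32.4 ± 3.78 CPM (SD, n = 12 PBS mice) and 30.7 ± 3.79 CPM (SD, n = 9 treated mice), a log2 fold change of -0.09 (95% confidence interval -0.25 to 0.08, adjusted p = 0.398, edgeR). No treated mouse was above the highest PBS mouse, the female 103 at 41.7 CPM. The highest treated mouse, male 88, had 36.3 CPM, above the next highest PBS mouse (male 83, 35.3 CPM). Kcnip4 was 62.4 ± 7.70 and 58.9 ± 7.32 CPM, a log2 fold change of -0.10 (95% confidence interval -0.27 to 0.08, adjusted p = 0.369, edgeR), and 6 of 9 treated mice were below the PBS median. Kcnip4 spans 1135.4 kb of chromosome 5, the longest span of the 9 genes, and shares 168 exonic bases with 5730480H06Rik and 99 with Gm20700, both on the other strand. Those shared bases leave its counts uncertain where strand was not used.

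The second comparison took the sexes apart. In females, 0% of all genes tested were called by edgeR, with 4539 at an unadjusted p under 0.05, and 3 of the 9 genes were among the latter. In males 0% were called as well, with 3913 and again 3 of the 9 genes at an unadjusted p under 0.05. limma/voom called 0 genes in either sex. DESeq2 called 92 in females and 212 in males, none of them among the 9.

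Kcnc1 was 142, 164 and 166 CPM in the 3 treated females, each above all 6 PBS females, which ran from 29.5 over 99.2 to 124 CPM. In treated males it ran from 63.1 over 124 to 170 CPM and overlapped the PBS males, at 40.9 over 75.3 to 93.0 CPM. Kcnd3 showed the same arrangement, with 104, 105 and 118 CPM in the treated females, above the PBS females at 44.5 to 84.7 CPM. The length slope of the library, a measure described further on, separated the females as well. It was at least 0.163 in treated females and at most 0.147 in PBS females. How many of all genes separate the females in this way was not counted.

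The log2 fold changes were 0.88 (SE 0.35, adjusted p = 0.152, edgeR) in females and 0.76 (SE 0.29, adjusted p = 0.178, edgeR) in males for Kcnc1. For Kcnd3 they were 0.71 and 0.46, and for Kcnc4 0.82 and 0.50. The difference between the sexes was itself tested as an interaction, in which edgeR called 0% of all genes, with 270 at an unadjusted p under 0.05. No member of the set was among those 270, and limma/voom and DESeq2 also called 0 genes. The interval of the interaction was wide, for Kcnc1 from -0.83 to 1.08 on the log2 scale, so a difference between the sexes of the size of the treatment difference was not detectable with 3 treated females.

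**Figure D3:**
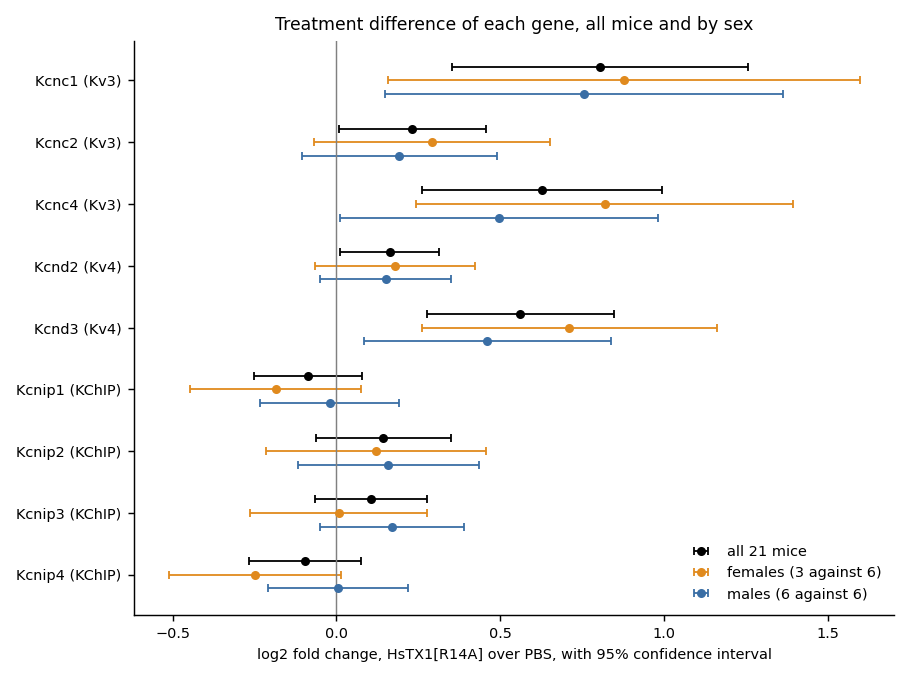
Log2 fold change between treated (HsTX1[R14A]) and PBS mice for each of the 9 genes with its 95% confidence interval, in all 21 mice (black), females (orange) and males (blue). The intervals of the 2 sexes overlap for every gene, and Kcnip4 is -0.25 in females and 0.01 in males.

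In PBS mice alone, females and males were compared. Only 0.0429% of all genes tested were called, 7 in number, and none of the 9. The log2 difference of females over males ran from -0.01 for Kcnip2 to 0.26 for Kcnc1, with 0 of the 9 at an unadjusted p under 0.05 and 485 of all genes.

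The libraries differed in how counts depended on transcript length, and this measure moved with the genes that were called. For each library, a line was fitted to the centred log2 CPM of all genes against the log2 length of their longest transcripts. This length slope was -0.08 ± 0.16 (SD, n = 12 PBS mice) and 0.10 ± 0.12 (SD, n = 9 treated mice), and the sex-averaged difference was 0.20 (exact permutation test within sex, two-sided, p = 0.00631). The libraries had names of 2 forms in the file header, and within the more common form the slopes differed by 0.19 (10 PBS against 5 treated mice, exact permutation test, two-sided, p = 0.0546). In the other form they differed by 0.09 (2 against 4 mice, exact permutation test, p = 0.333, and 2 against 4 cannot go below 0.0667).

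Over the 12 PBS mice alone, none of which had the peptide, the log2 CPM of Kcnc1 followed the slope with a Pearson r of 0.968 (permutation p = 2e-05, adjusted over 9 genes 6e-05) and a Spearman rho of 0.937 (p = 5e-05, adjusted 0.00015). For Kcnc4 r was 0.967 (permutation p = 1e-05, the smallest that 100000 permutations can give, adjusted 4.5e-05) and rho 0.937 (p = 4e-05, adjusted 0.00015). For Kcnd3 r was 0.944 (permutation p = 1e-05, adjusted 4.5e-05) and rho 0.965 (p = 2e-05, adjusted 0.00015). Without the 2 mice farthest from the median slope these r were 0.913, 0.909 and 0.959, and in the 10 PBS libraries with the more common form of name they were 0.965, 0.969 and 0.939. The slope was computed from all genes of these same libraries, so longer transcripts on average rise with it by construction. The share of all genes with such an r was not counted, so the relation is not shown to be particular to these genes.

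Kcnc2 had an r of 0.665 (permutation p = 0.0181, adjusted 0.0407) and a rho of 0.706 (p = 0.0129, adjusted 0.0290), with r of 0.575 without the 2 farthest mice. Kcnd2 had an r of 0.371 (permutation p = 0.236, adjusted 0.236) and a rho of 0.371 (p = 0.236, adjusted 0.303), with r of 0.549 without the 2 farthest mice. The KChIP genes had r of 0.611 for Kcnip2, 0.564 for Kcnip3, -0.578 for Kcnip4 and -0.624 for Kcnip1, with adjusted permutation p from 0.0503 to 0.0632. Their rho ran from -0.483 to 0.580, with adjusted p from 0.0936 to 0.444. Without the 2 farthest mice the sizes of r fell to between 0.242 and 0.321, so these 4 relations rested largely on those mice.

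In the 9 treated mice, Kcnc1 (r = 0.919), Kcnc4 (0.795) and Kcnd3 (0.792) again rose with the slope (exact permutation test, two-sided, p adjusted over 9 genes 0.0177, 0.0314 and 0.0314). Their rho were 0.700, 0.717 and 0.717 (exact permutation test, adjusted p = 0.0973 for each). Without the 2 farthest mice r was 0.749, 0.496 and 0.793. Kcnc2 had r of 0.693 and Kcnd2 of 0.691, each with an adjusted p of 0.0735 (exact permutation test), and 0.438 and 0.241 without the 2 farthest mice. Their rho were 0.767 and 0.617 (exact permutation test, adjusted p = 0.0973 and 0.154). The KChIP genes had r from -0.36 to 0.13 and rho from -0.18 to 0.38, with adjusted p from 0.432 to 0.985 (exact permutation test).

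**Figure D4:**
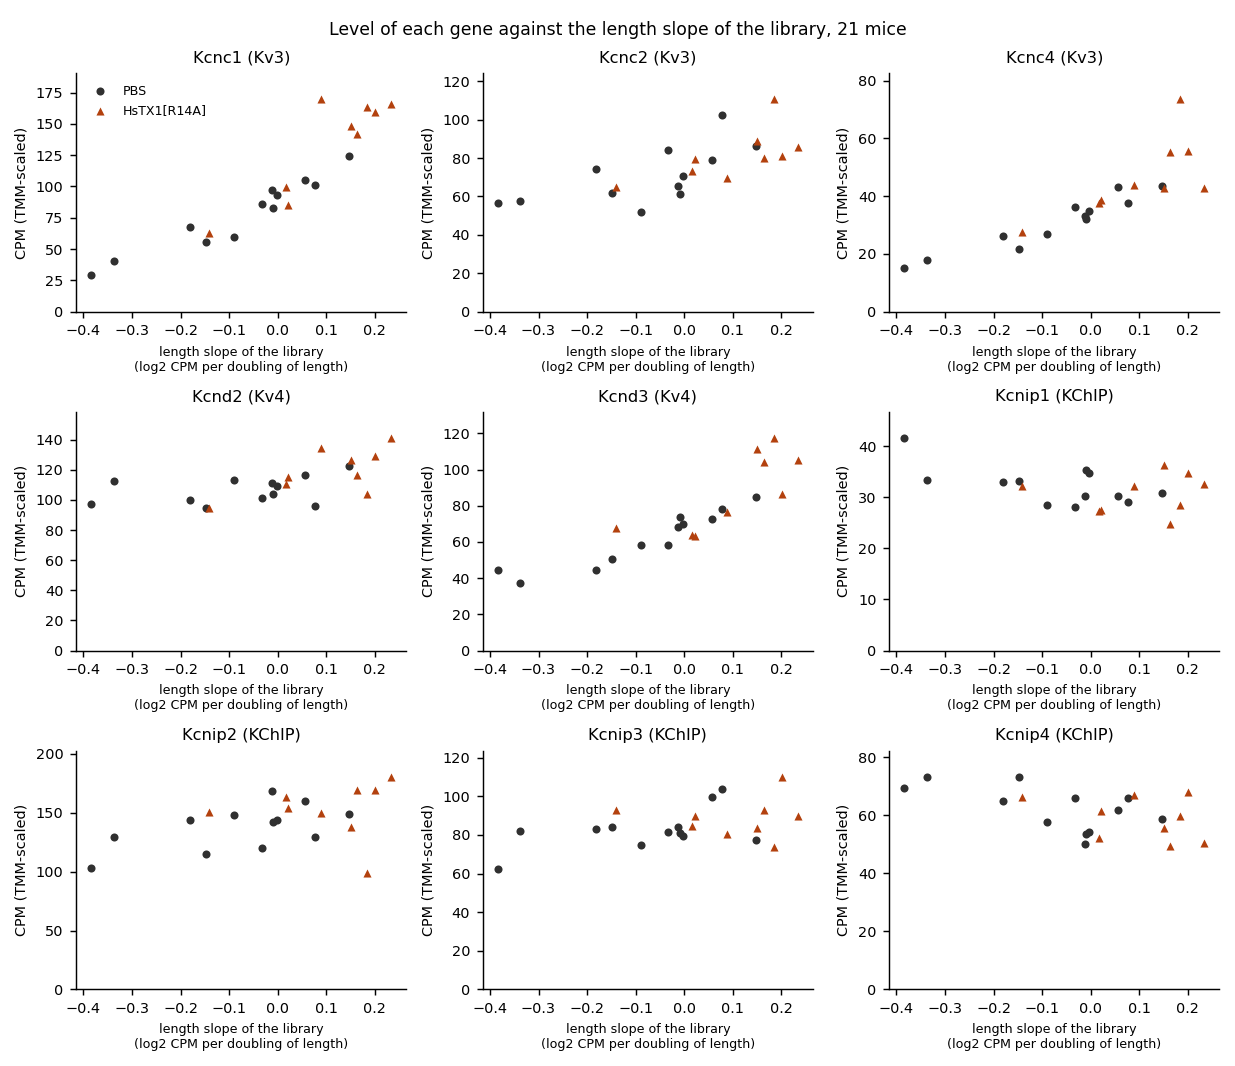
CPM of each of the 9 genes against the length slope of the library (log2 CPM per doubling of transcript length), with PBS mice as circles and treated mice as triangles. Kcnc1, Kcnc4 and Kcnd3 rise with the slope within the PBS mice (r from 0.944 to 0.968), and the treated mice lie mostly at slopes above 0.

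With the length slope added as a covariate, 0 of the 9 genes were called (1 at an unadjusted p under 0.05), and 0 of all genes (1865 at an unadjusted p under 0.05). The log2 fold change was then 0.10 (SE 0.10) for Kcnc1, 0.11 (SE 0.10) for Kcnc4 and 0.18 (SE 0.09) for Kcnd3, with adjusted p of 0.713, 0.700 and 0.426 (edgeR). When the trend of each library on length and GC content was removed as an offset, these 3 genes were still called, at 0.24, 0.33 and 0.28. Kcnip4 was at 0.18 in that fit (adjusted p = 0.0836) in place of -0.10. How far the slope and the treatment each contribute to the 3 differences cannot be told apart.

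**Figure D5:**
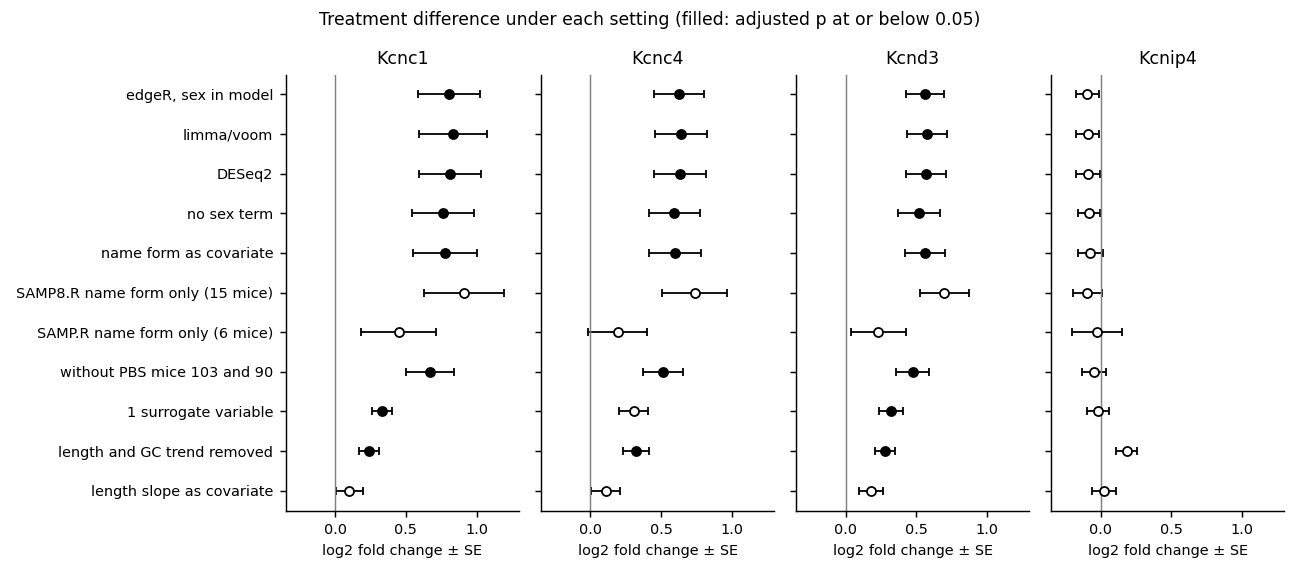
Log2 fold change ± SE of Kcnc1, Kcnc4, Kcnd3 and Kcnip4 under 11 settings, with filled points where the adjusted p is at most 0.05. The first 3 genes are smallest with the length slope as covariate (0.10, 0.11 and 0.18), and Kcnip4 changes sign in 2 settings.

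The 2 name forms were unequal between treatments, with 10 PBS and 5 treated mice in one and 2 and 4 in the other. With the form as a covariate, the same 3 genes were called, with log2 fold changes of 0.77 (Kcnc1), 0.60 (Kcnc4) and 0.56 (Kcnd3). Within the 15 libraries of the first form they were 0.91, 0.74 and 0.70, with adjusted p of 0.0679, 0.0675 and 0.0563 (edgeR). Within the 6 of the second form they were 0.45, 0.19 and 0.23, with adjusted p from 0.855 to 0.865. What the name form stands for is not given in the sources used here.

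Other parts of the Kv3 and Kv4 complexes and the T-type calcium channels that work with Kv4 were described as a list of 18 genes, of which 15 were in the table. Of these, 5 of 15 were called higher, beside 15.5% of all genes, and 0 lower, and the median log2 fold change was 0.14, beside -0.01 over all genes. Cacna1i, a T-type calcium channel pore, rose from 38.0 ± 20.8 to 74.4 ± 27.5 CPM (log2 fold change 1.06, adjusted p = 0.0191, edgeR). Dpp6, an auxiliary subunit of Kv4 channels, rose from 157 ± 44.3 to 227 ± 59.5 CPM (log2 fold change 0.58, adjusted p = 0.0201, edgeR).

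Kcnd1, a further Kv4 pore, also passed the test, rising from 5.93 ± 1.84 to 8.51 ± 2.32 CPM (log2 fold change 0.56, adjusted p = 0.0294, edgeR). With the length slope as covariate its sign turned, to -0.00256. The call of Kcnd1 was also lost without the PBS male 90 or the treated mice 72, 81, 88 or 98, one at a time, with log2 fold changes of 0.51 to 0.54 (adjusted p from 0.0531 to 0.0581, edgeR). It was lost as well without a sex term (0.52), with the name form as covariate (0.52), with the length and GC trend removed (0.24), with 1 surrogate variable (0.19) and within either name form (0.59 and 0.36). Dpp10, a relative of Dpp6 with the same role, had a log2 fold change of -0.10 and was not called. The 5 genes called have longest transcripts of 4720 to 9781 bases. Some that were not called are as long, such as Dpp10 with 15297, Flna with 8456 and Cacna1g with 8383 bases. Cacna1g narrowly missed the threshold, with a log2 fold change of 0.80 (adjusted p = 0.0550, edgeR), and Flna had 0.06 (adjusted p = 0.796, edgeR).

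Partners and targets named for Kcnip3 were a list of 6 genes, all measured, of which 3 were called higher, beside the same 15.5% of all genes, and 0 lower, with a median log2 fold change of 0.18. Fos, an immediate early gene under the control of DREAM sites, rose from 18.03 ± 6.96 to 31.7 ± 10.6 CPM (log2 fold change 0.88, adjusted p = 0.0170, edgeR). Slc8a3, a sodium-calcium exchanger gene repressed by DREAM, rose from 20.2 ± 5.54 to 28.9 ± 6.15 CPM (log2 fold change 0.56, adjusted p = 0.0185, edgeR). Pdyn, the prodynorphin gene that defines the DREAM site, was 46.8 ± 13.4 and 50.9 ± 12.5 CPM (adjusted p = 0.615, edgeR). Kcnip3 itself was not called, so the list and the gene were described side by side only.

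Markers of the cells that use these channels were set beside the genes. Of 8 markers of GABAergic and fast-spiking interneurons, 3 were called higher (Erbb4, Lhx6 and Slc32a1) and Vip was called lower, beside 15.5% and 16.1% of all genes. Pvalb, the defining marker of fast-spiking cells, was 72.6 ± 24.7 CPM in PBS mice and 56.0 ± 26.5 CPM in treated mice, a log2 fold change of -0.48 that was not called (adjusted p = 0.0891, edgeR). The summed level of the 8 markers ran from 823 to 1358 CPM in PBS mice and from 1076 to 1451 CPM in treated mice. Of 8 markers of neurons in general 3 were called higher, with sums of 6192 to 8745 and 7182 to 10077 CPM. None of the 4 markers of glutamatergic neurons was called.

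Of the glial lists, 3 of 6 oligodendrocyte markers, 3 of 9 microglia markers and 3 of 7 astrocyte markers were called lower, beside 16.1% of all genes, and none higher. The oligodendrocyte sum ran from 4277 to 6608 CPM in PBS mice and from 3243 to 4783 CPM in treated mice, the microglia sum from 414 to 598 and from 351 to 519 CPM. The astrocyte sum ran from 2926 to 4828 and from 3128 to 4894 CPM. None of the 7 cerebellar, 5 striatal, 3 choroid plexus and 4 erythrocyte markers was called, and 1 of 4 endothelial markers was called higher. With the length slope as covariate, 0 of all genes were called, so none of these marker calls remained. The part of these cell types in the differences of Kcnc1, Kcnc4 and Kcnd3 was not tested.

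The genes whose pattern was most like each gene were found by the Pearson correlation of log2 CPM over the 21 mice after the mean of each treatment and sex group was taken out. The values are descriptions, since all points come from the same libraries and share their length slope. Kcnc1 was closest to Polrmt (r = 0.979), Plekha6 (0.977) and Slc43a2 (0.977), and Kcnc4 to Grik4 (0.967), a kainate receptor subunit, Arhgap35 (0.962) and Fzr1 (0.961). Kcnd3 was closest to Cdk18 (0.962), Ano6 (0.957) and Trp53bp1 (0.955). Once each library's length and GC trend was removed, none of these 9 neighbours stayed among the closest 3.

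Kcnip2 kept 2 of its closest 3 genes under both treatments of the values, Ngef (0.939 as measured, 0.937 with the trend removed) and Phactr1 (0.929 and 0.939), and Rgs4 (0.933) joined them with the trend removed. Kcnip3 kept Tlk1 (0.920 and 0.898), Kcnip4 kept Fut8 (0.850 and 0.840) and Kcnc2 kept Ptpn3 (0.896 and 0.880). Kcnd2 was closest to Acvrl1 (0.802) and Xkrx (0.787) as measured, and to the T-type channel Cacna1i (0.762) and Sik3 (0.721) with the trend removed. Kcnip1 had the weakest closest neighbour, Samd3 (0.696), which changed to E130308A19Rik (0.817).

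Among the 9 genes themselves, the 3 pairs of Kv3 genes correlated with r from 0.628 to 0.903, the highest being Kcnc1 with Kcnc4. Kcnc1 with Kcnd3 had an r of 0.821 and Kcnc4 with Kcnd3 one of 0.796. With the trend removed the Kv3 pairs had r from 0.267 to 0.704, and the 6 pairs of a Kv3 and a Kv4 gene ran from -0.20 to 0.13. The 8 pairs of a KChIP and a Kv4 gene had r from -0.50 to 0.57 as measured, with a median of 0.11, and the highest was that of Kcnip2 with Kcnd2, the KChIP and the Kv4 pore of highest level per length. That pair was also the highest of the 8 with the trend removed (0.355).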

How the data were processed

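RNA-seq libraries of brain, named as whole brain in the study's methods, were compared between 12 PBS-treated and 9 HsTX1[R14A]-treated SAMP8 mice, 1 per mouse. Per the study's methods the reads were aligned to GRCm38 with STAR in the nf-core/rnaseq pipeline and quantified with Salmon, and the authors deposited estimated counts per gene, not normalized. The library kit is named differently in the labels (SMARTER) and in the methods (an MGI directional kit), and the labels spell the peptide HxTX1[R14A]. The filter that left 16318 genes is not given in the sources used here. The authors' fold changes, p-values and CPM columns were not used, and 53 per-sample columns were left out because they hold CPM or other libraries.

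Estimated counts were rounded to whole numbers (90.5% lay within 0.01 of one). The filter filterByExpr of edgeR 4.0.16 (R 4.3.3) kept 16303 genes. After TMM scaling they were tested by glmQLFit and glmQLFTest, in a model of sex and treatment for the combined comparison and of 4 treatment by sex groups for the others. P-values were adjusted over all genes tested by Benjamini and Hochberg's method, and genes at an adjusted p of at most 0.05 are called. The study used limma/voom, which was run here as an alternative. The standard error is the size of the log2 fold change divided by the square root of F, and log2 CPM carry a prior count of 2. Groups were taken from the sample titles. Within treatment and sex, 48 pairs of libraries were compared, and each differed by a mean chi-square per gene of at least 7.58, above sampling noise. Depth was at least 14917174 counts per mouse, and the spread between mice, not counting error, sets the precision.

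Gene coordinates, transcript lengths and GC content are from GENCODE vM21 (GRCm38), found for 99.5% of tested genes, and promoters from RefSeq (GRCm38.p6). Symbols standing for several gene IDs (24) were tested by ID. Correlations with the length slope were tested in numpy 2.4.6, with 100000 permutations in PBS mice and all 362880 pairings in treated mice. Ranks and adjusted p-values of these tests came from scipy 1.17.1. The alternatives were limma/voom (limma 3.58.1), DESeq2 1.42.0, RLE scaling, no low-count filter, a minimum of 10 counts in each mouse, omission of the sex term, library name form as covariate or each form alone, the length slope as covariate, a loess trend on length and GC content (span 0.5) removed per library, 1 surrogate variable (sva 3.50.0), each mouse left out in turn, and, chosen after seeing the data, the 2 libraries of most negative slope left out. The treatment test with the sexes combined was also tried on simulated data.

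The 9 genes and all gene lists were chosen with earlier results of these data known. The rule for named genes took all 9, the 4 of smallest p in the list of Kv3 and Kv4 complex genes, the 2 of smallest p in the Kcnip3 list and the 3 genes most like each of the 9, and 2 of the genes it took are not reported here. Dpp10, Flna, Cacna1g, Pdyn and the markers named were chosen after their values were seen.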

Additional observations from a re-analysis of the deposited data

Results flagged for a closer look

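The level of Kcnip1 in the PBS female 103 was 41.7 CPM and stood apart from the other 5 PBS females, whose highest was 33.2 CPM and lowest 29.03 CPM. The gap to the nearest of them was 0.669 of the range of the group, above Dixon's critical value of 0.625 for 6 mice. Of the 27 sets of mice examined, 9 genes in each group of 6, it was the 1 that passed, and chance alone passes about 1 in 20. The same library had the lowest total, 14917174 counts, the most negative length slope, -0.38, and the lowest levels of Kcnc1, Kcnc4 and Kcnip3 among the 21 mice. Without it the log2 fold change of Kcnip1 was -0.05 (adjusted p = 0.598, edgeR), in place of -0.09. The cause of the high value was not tested.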

How the results depend on the processing

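The 3 calls (Kcnc1, Kcnc4 and Kcnd3) were also made by limma/voom and DESeq2, with RLE scaling and with either other low-count filter. They were made as well without a sex term, with the name form as covariate and with the length and GC trend removed. They also held without the 2 libraries of most negative slope, with log2 fold changes of 0.67, 0.51 and 0.47. With 1 surrogate variable, Kcnc1 and Kcnd3 were called. Leaving out any 1 mouse, 3 or 4 of the 9 genes were called. There were 0 with the length slope as covariate, 0 in the 15 libraries of the more common name form and 0 in the 6 of the other, the latter 2 with fewer samples. Among all genes, 5144 were called, and 2984 without a sex term, 1999 with the name form as covariate, 2501 with the length and GC trend removed, 1104 with 1 surrogate variable, 2887 without the 2 libraries of most negative slope, 0 with the slope as covariate and 0 within either name form. Leaving out 1 mouse gave 2289 (without PBS male 90) to 6614 genes (without HsTX1[R14A] male 93), and 3005, 3332, 3121 and 3263 without HsTX1[R14A] mice 98, 71, 88 and 81. Kcnip4 turned from -0.10 to 0.024 with the slope as covariate and to 0.18 with the trend removed, and Kcnd1 to -0.00256 with the slope as covariate. The causes of these changes were not tested. The length slope as covariate takes out what moves with the slope, and the slope itself differed between treatments. Within each sex, for the interaction and between the sexes in PBS mice, 0 of the 9 genes were called under each of 32 alternatives. The length slope differed between treatments by 0.17 to 0.22 without 1 mouse and by 0.23 over protein-coding genes. Cacna1i, Dpp6, Fos and Slc8a3 each lost their call under 4 alternatives, the slope as covariate, 1 surrogate variable and either name form alone. With 3 treated females, the intervals of the treatment difference were wider in females than in males, and those of the interaction were wider still. No paired analysis was possible because the animal numbers in the labels are not shared between groups.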
